A study of Mus musculus with 8 samples.

Results

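Mouse embryos at the 2-cell stage sired by nonTG males, the littermates of KDM1A transgenic males that lack the transgene, were compared with embryos sired by C57BL/6 males. The comparison used 5 of the 8 arrays of the series, chosen by the genotype label of the sire, with 2 nonTG arrays and 3 C57BL/6 arrays. Each array was hybridised with RNA of a pool of whole embryos, 26 per pool on average. The genes compared were the 14995 symbols that at least 1 probeset carried alone, each read from its brightest such probeset. Of these, 11444 had a mean log2 value above 2.07, the 30th percentile of all 22961 probesets, and were tested, and 3551 lay under that level.

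All mothers were C57BL/6 females that received 5 IU of eCG and of hCG, and the embryos were flushed from their oviducts 46 to 48 hours after hCG. The fathers of the control group were C57BL/6 males. Those of the other group have the genotype label nonTG, and the array titles write nonTG3 without saying what the 3 stands for. The labels used here do not give the strain background or age of the nonTG males, the promoter of the transgene that their littermates carry, or the number of males and females behind a pool. Strain background, litter and descent from a transgenic line go together with the group and cannot be told apart. Pools of a group may share parents, so the p-values reflect how much these pools varied, part of which may be technical variation, and 2 arrays against 3 limit the precision of every value.

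At the 2-cell stage the mouse embryo passes from RNA stored in the egg to RNA made from its own genome. Transcripts loaded during oocyte growth, such as those for the zona pellucida, the subcortical maternal complex and egg chromatin proteins, are cleared, while families such as Zscan4, Usp17l and Pramel are switched on. KDM1A, also named LSD1, takes methyl groups off lysine 4 of histone H3. The series title concerns effects of altered histone methylation in sperm that pass between generations, and embryos of nonTG sires come from that line without a transgenic father.

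The 5 arrays had median log2 values of 2.74 to 2.86 and interquartile ranges of 1.87 to 2.06. Across all probesets, Pearson correlations were 0.903 to 0.935 within groups and 0.889 to 0.946 between groups, and the closest pair was nonTG replicate 1 with C57BL/6 replicate 2. The ranges within and between groups overlapped. Dppa3 and Omt2b, maternal transcripts of the egg, were read at 7.83 to 10.18 and at 8.52 to 10.62 in the 5 arrays. Markers of the oviduct that the embryos were flushed from were read too, with Wfdc2 at 5.75 to 7.90, lactoferrin (Ltf) at 6.97 to 8.64 and the ciliogenesis factor Foxj1 at 4.62 to 5.88. The mean of the secretory and ciliated oviduct markers was 5.72 in nonTG replicate 1 and 5.32 in replicate 2, against 5.14, 5.50 and 4.85 in C57BL/6 replicates 1, 2 and 3. A further fit with this mean as a covariate is called the oviduct-adjusted fit. In whole pools, fewer cells of a type and less RNA per cell cannot be told apart.

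Of the 11444 genes, 15 passed limma's test at an adjusted p under 0.05 (0.131%), 8 higher (0.0699%) and 7 lower (0.0612%) in nonTG. The higher genes code for metabolic enzymes, a calcium buffer and proteins of membrane traffic and ion transport, and the lower ones include 2 microRNA precursors, a fatty acid binding protein and a urea cycle enzyme. On the 5 arrays alone, without the 3 KDM1A TG arrays that otherwise add to the estimate of the spread, 6 genes passed (0.0524%), namely Ap1s3, Calb1, Fads2b, Sult1d1, Mir365-1 and Gm5166. At an unadjusted p under 0.05 there were 941 genes (8.22%), 527 higher (4.61%) and 414 lower (3.62%). The values of the groups did not overlap for 2840 genes (24.8%), with nonTG on the higher side in 1763 (15.4%) and on the lower side in 1077 (9.41%). After quantile normalization or cyclic loess only Mir365-1 passed, and without nonTG replicate 2 none of the 15 did, though 3 others passed.

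Differences were mostly small. All genes together had a median log2 change of 0.04, and 6092 genes (53.2%) had a change above 0. A difference of at least 1 on the log2 scale was measured for 154 genes on the higher and 128 on the lower side, and of at least 1.5 for 13 and 19. The change moved with level. From the dimmest to the brightest of 5 equal bins of genes the median went from -0.04 to 0.21, the share at an unadjusted p under 0.05 from 4.72% to 14.7%, and 9 of the 15 genes that passed were in the brightest bin. The test drew the spread of single genes strongly towards a common value, with a median standard error of 0.366 and a lowest of 0.356. A gene whose 2 nonTG arrays lie far apart can therefore still pass.

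**Figure D1:**
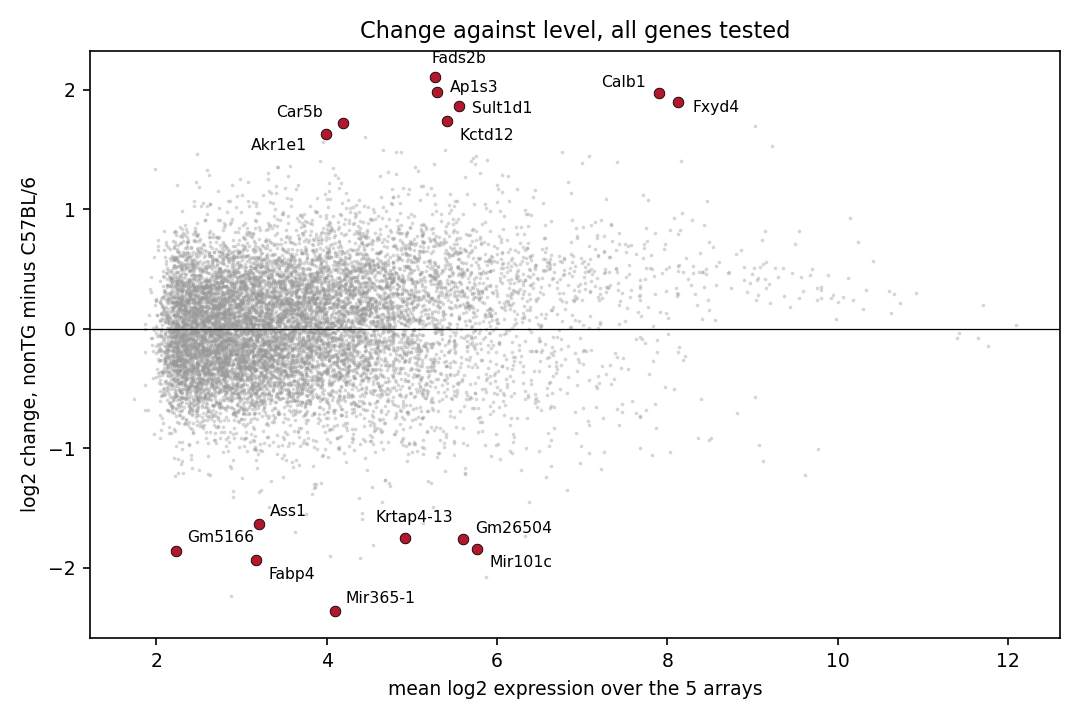
Log2 change of nonTG against C57BL/6 embryos (vertical axis) against the mean log2 expression over the 5 arrays (horizontal axis), 1 point per gene for 11444 genes. Red points mark the 15 genes that passed, 8 with changes of 1.63 to 2.10 and 7 with changes of -2.36 to -1.63.

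Among the genes higher in nonTG, Fads2b, a member of the fatty acid desaturase family, had the largest rise. Its log2 values were 6.5 and 6.58 in the nonTG arrays and 5.04, 4.65 and 3.62 in the C57BL/6 arrays. The nonTG arrays were nearly equal and both stood above every C57BL/6 array, with C57BL/6 replicate 3 lowest. The rise was 2.10 on the log2 scale, with a 95% interval of 1.28 to 2.93. Calb1 codes for calbindin, a cytosolic calcium buffer. It was read at 8.59 and 9.58 in nonTG and at 7.41, 7.61 and 6.32 in C57BL/6. The groups did not overlap, and the rise of 1.97 (interval 1.21 to 2.73) was smallest against C57BL/6 replicates 1 and 2.

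Ap1s3, the sigma subunit of an AP-1 clathrin adaptor, stood at 5.81 and 7.17 in nonTG and at 4.26, 4.94 and 4.33 in C57BL/6, a rise of 1.99 (interval 1.24 to 2.73). Here the 2 nonTG arrays differed more than the 3 C57BL/6 arrays, and both lay above them. Sult1d1, a cytosolic sulfotransferase, was read at 6.30 and 7.06 against 4.70, 5.58 and 4.16 and rose by 1.86. Akr1e1, an aldo-keto reductase, was the tightest of the 15 within groups, with 4.95 and 5.00 against 3.42, 3.41 and 3.19, and rose by 1.63 (SE 0.36). Car5b, a carbonic anhydrase of mitochondria, was read at 4.33 and 6.13 against 3.1, 3.35 and 4.07 and rose by 1.72. Most of its rise came from nonTG replicate 2, since replicate 1 lay only just above C57BL/6 replicate 3.

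Fxyd4, a small membrane protein that modulates the sodium pump, was read at 8.74 and 9.78 in nonTG and at 7.56, 8.37 and 6.16 in C57BL/6, and rose by 1.90. The groups did not overlap, but nonTG replicate 1 and C57BL/6 replicate 2 were close. Kctd12, whose protein binds GABA-B receptors and shapes their response, was read at 5.90 and 7.02 against 4.34, 5.33 and 4.50 and rose by 1.74. Its other probeset gave 5.18 and 5.27 against 3.67, 4.88 and 4.76, a change of 0.79, which is smaller though in the same direction. C57BL/6 replicate 3 was the lowest array in Calb1, Fads2b, Sult1d1, Fxyd4 and Akr1e1.

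These calls depended on which arrays were in the fit. Without nonTG replicate 2, which leaves 1 nonTG array, the log2 changes of Fads2b (2.06) and Akr1e1 (1.61) hardly moved. Those of the other higher genes became smaller, from 0.82 for Car5b to 1.48 for Sult1d1. Without C57BL/6 replicate 3 only Ap1s3 and Car5b passed, the others lying between an adjusted p of 0.0825 for Calb1 and 0.337 for Fxyd4. Without KDM1A TG replicate 2, which enters through the spread alone, Ap1s3 and Calb1 passed and the others lay between 0.0508 for Akr1e1 and 0.148 for Car5b. Kctd12 and Car5b were also lost without C57BL/6 replicate 1 (adjusted p = 0.133 and 0.166), and Car5b without KDM1A TG replicate 3 (0.0541). Without nonTG replicate 1 the changes of Fads2b and Akr1e1 were 2.15 and 1.66. Every change kept its sign in these fits, and the log2 change of Akr1e1 varied least, from 1.56 to 1.67. None of the 8 passed after quantile normalization (adjusted p = 0.0626 to 0.203) or cyclic loess (0.12 to 0.253), and only Ap1s3 passed in the oviduct-adjusted fit (0.00943).

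**Figure D2:**
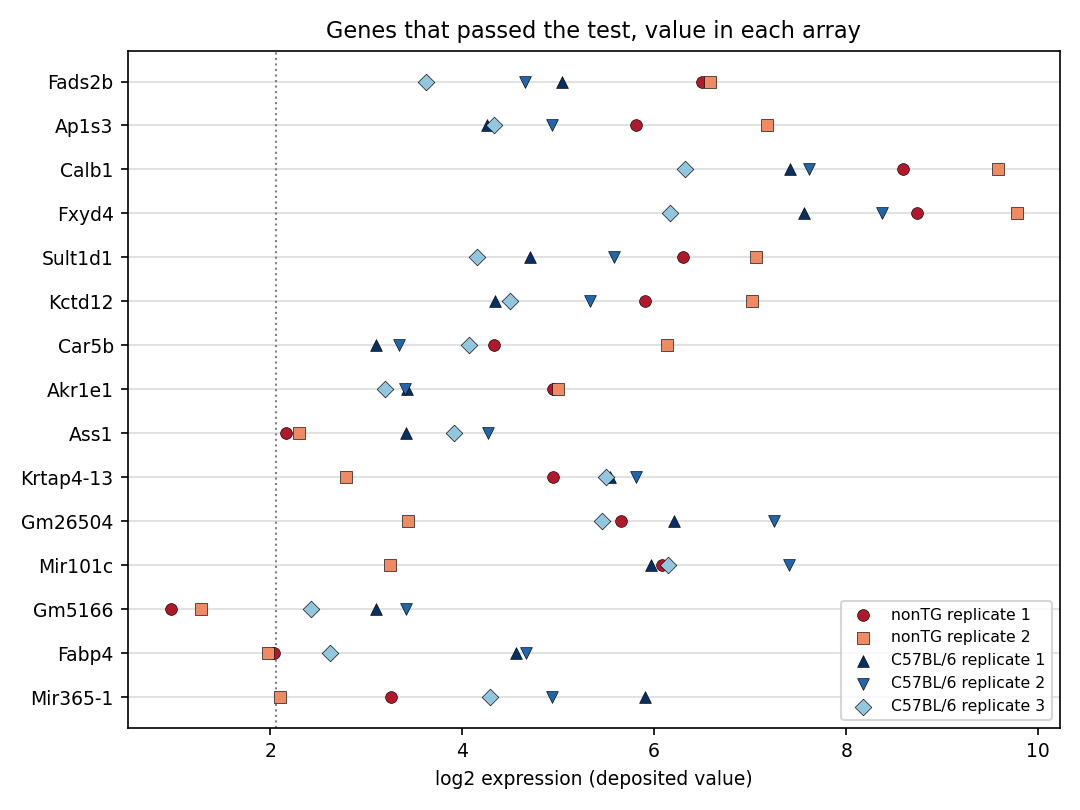
Log2 expression (horizontal axis) of the 15 genes that passed, ordered by log2 change, with 1 symbol per array in red tones for nonTG and in blue tones for C57BL/6. The dotted line is the filter level of 2.07, and the red symbols of Mir101c and Gm26504 lie far apart, with nonTG replicate 1 among the C57BL/6 arrays.

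The higher genes were set beside other members of their families. Of 29 tested sulfotransferases, aldo-keto reductases, glutathione transferases and other detoxifying or antioxidant enzymes, all 29 had a change above 0, against 53.2% of all genes. The 2 that passed, Sult1d1 and Akr1e1, were the reason to read the list. At an unadjusted p under 0.05, 7 were higher (24.1%, against 4.61% of all genes). The others of those 7 include the glutathione transferases Gsto1 (1.07), Gstp1 (0.92) and Gsta4 (0.84) and the aldo-keto reductase Akr1b10 (0.80), none of which passed. Gsto1 was read at 8.71 and 9.50 in nonTG and at 8.70, 8.32 and 7.10 in C57BL/6, so its lower nonTG array stood only just above the highest C57BL/6 array. The median of the list was 0.46, or 0.42 above that of all genes, and 0.38 to 0.39 after cyclic loess and quantile normalization. The mean level of the list was 5.22 and 5.18 in nonTG and 4.63, 4.97 and 4.38 in C57BL/6. Cilia and oviduct markers moved in the same arrays, and their part in this was not tested beyond the oviduct-adjusted fit, where the median was 0.23 above all genes.

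In the AP clathrin adaptor complexes, which sort cargo into transport vesicles, Ap1s3 was the only one of 21 tested genes to pass or to reach an unadjusted p under 0.05. Its nearest relatives Ap1s1 and Ap1s2 had changes of 0.32 and 0.32, and Ap1m2, the mu subunit of epithelial AP-1, had 0.67. Among 7 tested genes of the Fxyd family and sodium pump, Atp1b1, the beta subunit that brings the pump to the membrane, had a change of 1.17 (6.51 and 6.91 against 5.16, 5.92 and 5.55, adjusted p = 0.224), and the others besides Fxyd4 lay between -0.32 and 0.47. Of 7 carbonic anhydrases, Car2 had a change of 1.27 (6.71 and 6.05 against 5.81, 6.12 and 3.41) that came from its low value in C57BL/6 replicate 3. Car3 had one of -0.92, with values of 3.75 and 2.14 against 4.05, 3.33 and 4.23 that overlapped. At an unadjusted p under 0.05 there were 2 of the 7 Fxyd and sodium pump genes on the higher side (28.6%). Of the 7 carbonic anhydrases 2 were on the higher (28.6%) and 1 on the lower side (14.3%). The shares of all genes were 4.61% and 3.62%. Each family was read because a member, Fxyd4 or Car5b, had passed, so the place of that member in the count is set by the choice.

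Of 38 genes of fatty acid and sterol metabolism, Fads2b passed as higher and Fabp4 as lower. Fads1, Fads2 and Fads3, the other desaturases of the family that were tested, had changes of 0.16, 0.13 and 0.58. Insig1, which holds back sterol synthesis, had a change of -0.95 (3.71 and 3.77 against 4.74, 4.55 and 4.76, adjusted p = 0.392), with tight groups that did not overlap. Acadl and Cpt2, enzymes of fatty acid oxidation, had 0.93 and 0.71, and Fabp5 had 0.85 where Fabp4 fell. The list as a whole had a median of 0.11, or 0.08 above all genes.

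The start sites of the genes that passed were looked up in RefSeq for GRCm38.p6. An upstream sequence of 250 bases was found for 9 of the 15, of which 7 were higher and 2 (Ass1 and Krtap4-13) lower. Searched on both strands, CCAAT was found upstream of Akr1e1, Car5b and Fads2b, GGGCGG upstream of Car5b, Fads2b, Fxyd4, Kctd12 and Ass1, and TATAAA upstream of Krtap4-13. In the 10825 such windows of tested genes, CCAAT was present in 35.2%, GGGCGG in 51.2% and TATAAA in 8.66%. A match is a description of the letters in the window only. The upstream windows of the largest rise, Fads2b (chr2:85518936-85519185, minus strand), and of the lower gene Krtap4-13 (chr11:99809897-99810146, minus strand) are shown 5′ to 3′ up to the base before the start, with these motifs in capitals (ATTGG is CCAAT on the other strand).
Fads2b: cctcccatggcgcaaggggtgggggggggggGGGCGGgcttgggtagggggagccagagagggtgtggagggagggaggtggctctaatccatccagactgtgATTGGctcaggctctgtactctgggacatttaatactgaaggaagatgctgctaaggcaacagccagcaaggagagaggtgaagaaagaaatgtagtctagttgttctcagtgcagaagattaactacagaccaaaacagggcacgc
Krtap4-13: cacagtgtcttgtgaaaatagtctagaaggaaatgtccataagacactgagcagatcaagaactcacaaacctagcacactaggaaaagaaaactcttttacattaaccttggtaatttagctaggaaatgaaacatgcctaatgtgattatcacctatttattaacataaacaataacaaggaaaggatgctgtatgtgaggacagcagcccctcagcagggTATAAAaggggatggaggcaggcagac

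Mir365-1, the precursor gene of microRNA miR-365, had the smallest p of all genes and fell by 2.36 on the log2 scale (SE 0.39, interval -3.14 to -1.58, adjusted p = 0.000598). Its values were 3.26 and 2.10 in nonTG and 5.90, 4.94 and 4.29 in C57BL/6. Every C57BL/6 array lay at least 1 log2 unit above both nonTG arrays, and the difference was 5.14-fold (95% interval 2.99 to 8.83). It was the only gene to pass in each scaling of the arrays, with adjusted p of 0.0254 (quantile) and 0.0306 (cyclic loess), and it also passed on the 5 arrays alone (0.0103). Without nonTG replicate 2 its change was -1.78 and it did not pass (adjusted p = 0.187). Mir101c, the other microRNA precursor that passed, was read at 6.08 and 3.24 against 5.97, 7.4 and 6.15. Only nonTG replicate 2 was low, replicate 1 lay between the C57BL/6 arrays, and without replicate 2 the change went from -1.84 to -0.42.

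The mature sequences of these and of the precursors Mir680-1, Mir1191 and Mir2137 are shown from RefSeq (GRCm38.p6), 5′ to 3′, with the seed, bases 2 to 8, in capitals. Mir365-1 lies on the plus strand of chromosome 16, with its arms at chr16:13453855-13453877 and chr16:13453895-13453916, and Mir101c on the minus strand at chr9:3038680-3038698. The 3p arm is the same in Mir365-1 and Mir365-2, and Mir365-2 was not tested. The sequence of miR-101c is a stretch of miR-101a that starts later, so its seed differs from those of miR-101a and miR-101b, and neither of these was tested.
miR-365-3p: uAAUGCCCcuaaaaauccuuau
miR-365-1-5p: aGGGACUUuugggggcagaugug
miR-365-2-5p: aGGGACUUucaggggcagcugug
miR-101c: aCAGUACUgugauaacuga
miR-101a-3p: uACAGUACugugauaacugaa
miR-101b-3p: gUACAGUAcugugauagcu
miR-680: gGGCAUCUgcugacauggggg
miR-1191a: cAGUCUUAcuauguagcccua
miR-2137: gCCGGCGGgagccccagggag

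These arrays read whole transcripts, so a probeset of a microRNA gene reports its precursor region and not the mature form. Of 331 microRNA genes with a probeset of their own, 132 were tested, 2 passed as lower and none as higher. A change below 0 was measured in 99 of the 132, against 46.8% of all genes. Of the precursors, 26 were lower at an unadjusted p under 0.05 (19.7%, against 3.62% of all genes). Their median was -0.36, and relative to all genes it was -0.19 in nonTG replicate 1 and -0.66 in replicate 2. The mean level of the list was 3.66 and 3.06 in nonTG and 3.81, 3.82 and 3.63 in C57BL/6, so nonTG replicate 1 lay inside the range of the C57BL/6 arrays. Mir680-1, which gives miR-680, was read at 5.15 and 1.77 against 4.84, 5.98 and 5.00, and Mir2137 at 5.06 and 3.79 against 5.74, 6.33 and 5.04 (adjusted p = 0.0592 and 0.171). Mir1191 was low in both nonTG arrays, with 5.85 and 5.16 against 8.39, 6.24 and 6.25, but did not pass (adjusted p = 0.141). The 3 tested precursors with the seed GGCAUCU, Mir680-1, Mir680-2 and Mir680-3, had changes between -1.81 and -0.51. Precursors of the Mir297, Mir466, Mir467 and Mir669 families, a group chosen after its values were seen, had changes below 0 in 14 of 14, with a median of 0.07 in nonTG replicate 1 and -1.62 in replicate 2 relative to the C57BL/6 mean. The largest gap was in Mir467e, with 6.92 in nonTG replicate 1 and 2.35 in replicate 2 against 6.76, 7.25 and 6.11.

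Fabp4, which carries fatty acids in fat cells and macrophages, was read at 2.05 and 1.97 in nonTG, both under the filter level of 2.07, and at 4.56, 4.66 and 2.62 in C57BL/6. It fell by 1.94 on the log2 scale and at least 3.68-fold, a bound from the C57BL/6 mean and the filter level that leaves out their error. C57BL/6 replicate 3 was nearer to the nonTG arrays than to its own group. Of 10 adipocyte markers tested, 6 had changes below 0 and 3 were lower at an unadjusted p under 0.05 (against 3.62% of all genes), namely Fabp4, Retnla and Car3, of which only Fabp4 passed. The list's median was -0.06 and its mean -0.43 relative to all genes. Retnla, a secreted protein of fat and alternatively activated macrophages, was read at 2.37 and 0.71 against 2.23, 6.78 and 2.31, so its change of -2.24 came from C57BL/6 replicate 2. Adiponectin (Adipoq, 0.36), perilipin (Plin1, -0.03) and lipoprotein lipase (Lpl, -0.10), further markers of fat cells, were read between 1.97 and 3.80 in all 5 arrays.

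Ass1, argininosuccinate synthase of the urea cycle, was low in both nonTG arrays, with 2.16 and 2.30 against 3.41, 4.27 and 3.91, and fell by 1.63 (interval -2.36 to -0.91). Of 18 tested genes of the urea cycle, arginine and polyamine list, no other was at an unadjusted p under 0.05, and Slc25a15, the ornithine carrier, and Slc7a2, an arginine transporter, had changes of -0.52 and -0.50. Arginase genes Arg1 and Arg2 had 0.05 and 0.18, and Cps1, the entry enzyme of the cycle, had 0.41. Gm5166, a predicted gene, was read at 0.96 and 1.28 against 3.1, 3.41 and 2.43 and fell at least 1.89-fold, a bound set by the filter level because both nonTG arrays lay below it.

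Krtap4-13, a keratin-associated protein gene of hair, was read at 4.94 and 2.79 in nonTG and at 5.54, 5.82 and 5.50 in C57BL/6, and fell by 1.75. Of 16 tested genes of its family 12 had a change below 0, and Krtap4-8, at 2.84 and 3.86 against 1.60, 1.36 and 2.72, had the opposite change of 1.46 (adjusted p = 0.0821). Gm26504, a predicted gene, fell by 1.76 with values of 5.65 and 3.44 against 6.21, 7.24 and 5.46. Its nonTG replicate 1 lay inside the C57BL/6 range, and its other 14 probesets held the same values. Krtap4-13, Mir101c and Gm26504 shared the pattern that nonTG replicate 2 alone was clearly low.

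The lower calls also depended on which arrays were in the fit. Without nonTG replicate 2, the changes of Gm5166 (-2.02), Ass1 (-1.70) and Fabp4 (-1.90) stayed near those of the full fit. Those of Mir365-1 (-1.78), Krtap4-13 (-0.68), Gm26504 (-0.65) and Mir101c (-0.42) became smaller in size. Without nonTG replicate 1, Gm5166, Fabp4 and Ass1 had changes of -1.70, -1.97 and -1.57. Without KDM1A TG replicate 2 only Mir365-1 and Gm5166 passed, the others lying between an adjusted p of 0.0674 for Ass1 and 0.195 for Mir101c. Without C57BL/6 replicate 2, Ass1, Mir101c and Gm26504 were lost (0.0539, 0.105 and 0.123), without replicate 3 Ass1 and Krtap4-13 (0.072 and 0.0504), and without replicate 1 Fabp4 (0.0977). Without KDM1A TG replicate 3, Mir101c and Gm26504 stood at 0.0874 each, and Krtap4-13 lay just above the threshold. All 7 kept their sign throughout. In the oviduct-adjusted fit 5 of them passed, Mir365-1, Gm5166, Fabp4, Krtap4-13 and Gm26504, with adjusted p between 0.000372 and 0.0223.

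Further genes that did not pass were picked by smallest p among those whose arrays did not overlap between the groups. Their separation is thus set by the choice, and 24.8% of all genes share it. On the higher side, Ivns1abp, an actin-associated kelch protein, was read at 7.25 and 8.05 against 5.95, 6.42 and 6.14 (change 1.48, adjusted p = 0.0592). Gcnt1, a glycosyltransferase of mucin-type glycans, had 1.61, the lysosomal protein gene Tmem106b 1.5, and Far1, which makes fatty alcohols for ether lipids, 1.48. Ccng1, a cyclin induced by p53, and Id2, an inhibitor of basic helix-loop-helix factors, had 1.45 each. Jam2, a junctional adhesion molecule, was read at 6.55 and 6.6 against 4.99, 5.54 and 4.90 (change 1.43, adjusted p = 0.0753). On the lower side Fthl17b, a ferritin-like gene on the X chromosome, was read at 3.71 and 4.21 against 5.09, 5.61 and 5.85 (change -1.56), and Alyref2, an mRNA export factor, at 3.29 and 2.37 against 4.49, 4.53 and 4.10 (change -1.55, adjusted p = 0.0521 for each). Trim59, a ubiquitin ligase of the tripartite motif family, had -1.45, Gnrh1, which codes for gonadotropin-releasing hormone, -1.49, and Ska1, a kinetochore protein, -1.33.

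Lists of genes of the passage from oocyte to embryo were compared by the count of their tested members and by their median relative to all genes. No member of any of these lists passed. Of 39 maternal chromatin and mRNA decay factors, 35 had a change below 0, against 46.8% of all genes. At an unadjusted p under 0.05, 14 were lower (35.9%, against 3.62% of all genes), and the median of the list was -0.58 relative to that of all genes. Npm2, the nucleoplasmin that remodels sperm chromatin, was read at 4.36 and 4.31 against 5.46, 4.90 and 5.78, so both nonTG arrays lay under the C57BL/6 range (change -1.05, adjusted p = 0.318). Tcl1b3, of an oocyte-expressed family of kinase cofactors, had -1.21, with 5.38 and 4.42 against 6.56, 5.4 and 6.38. Dppa3, which protects maternal DNA methylation, was read at 7.83 and 9.10 against 9.67, 8.86 and 10.18, and Btg4, the adaptor that brings the deadenylase to maternal mRNA, at 5.88 and 7.11 against 7.51, 6.08 and 7.52. In both of these C57BL/6 replicate 2 was below nonTG replicate 2, so the groups overlapped.

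In a list of 14 tested Nlrp genes, members of the subcortical maternal complex and Khdc1 genes, 12 had changes below 0. At an unadjusted p under 0.05, 5 were lower (35.7%, against 3.62% of all genes), namely Nlrp9b, Nlrp9c, Khdc1b, Khdc1c and Zbed3. Of the complex itself, which early cleavage needs, Ooep, Tle6 and Padi6 were not analysed here, and Khdc3 had a change of 0.26. Nlrp9b was read at 2.19 and 1.75 against 3.76, 2.65 and 2.70 (change -1.06), while Nlrp5, also called Mater, overlapped widely with 3.73 and 2.86 against 4.85, 2.75 and 4.18. The zona pellucida and oocyte growth factor genes had 11 of 13 below 0, among them Zp2 (-0.77), Zp3 (-0.60), Gdf9 (-0.62) and Bmp15 (-0.55). All 5 tested Obox homeobox genes lay between -0.73 and -0.50. The oocyte Fbxw genes had 6 of 8 above 0 and a relative median of 0.05, which was -0.28 without nonTG replicate 2 and -0.19 without C57BL/6 replicate 2, and Fbxw15 had -1.30 (3.79 and 2.40 against 5.04, 4.0 and 4.14).

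The 2-cell activation genes, which mark the first embryonic transcription, had 38 of 45 below 0. At an unadjusted p under 0.05, 13 were lower (28.9%, against 3.62% of all genes). Usp17lc, a deubiquitinase, was read at 3.74 and 3.79 against 5.12, 4.44 and 5.28, and Pramel6, a leucine-rich repeat protein of early embryos, at 3.23 and 3.07 against 4.42, 3.74 and 4.74. In both the nonTG arrays were nearly equal and under every C57BL/6 array (changes -1.18 and -1.15). Zscan4d, a telomere regulator of this stage, was read at 3.17 and 3.65 against 4.12, 3.64 and 3.97 (-0.50). Regulators of genome activation had a relative median of -0.23 and 17 of 28 below 0, with Dppa4 (-1.09) and Dppa2 (-0.97), chromatin proteins upstream of the 2-cell programme, and Tead4 (-0.88) lowest. That median was above 0 in nonTG replicate 2 (0.11) and in the oviduct-adjusted fit (0.10).

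These early lists stood further below all genes in nonTG replicate 1 than in replicate 2. Their relative medians were -0.80 and -0.26 for the maternal chromatin list, -0.96 and -0.16 for the list of Nlrp and subcortical complex genes, -0.97 and -0.27 for the zona and growth factors, and -1.08 and -0.22 for 2-cell activation. The mean level of the 2-cell activation list was 3.94 and 4.60 in nonTG and 5.10, 4.30 and 4.90 in C57BL/6, so C57BL/6 replicate 2 lay under nonTG replicate 2. Without C57BL/6 replicate 2 the medians went to -0.84 to -1.0, and without nonTG replicate 1 to -0.16 to -0.27. In each of these 4 lists nonTG replicate 1 and C57BL/6 replicate 2 had the lowest mean levels, and these were the 2 arrays with the highest oviduct marker mean. In the oviduct-adjusted fit the 4 medians were -0.25, -0.17, -0.12 and -0.22, in the same direction and closer to 0. The covariate of that fit comes from the same arrays, with 5.72 and 5.32 in nonTG against 5.14, 5.50 and 4.85 in C57BL/6. A part of oviduct material in these lists was not tested beyond that fit.

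**Figure D3:**
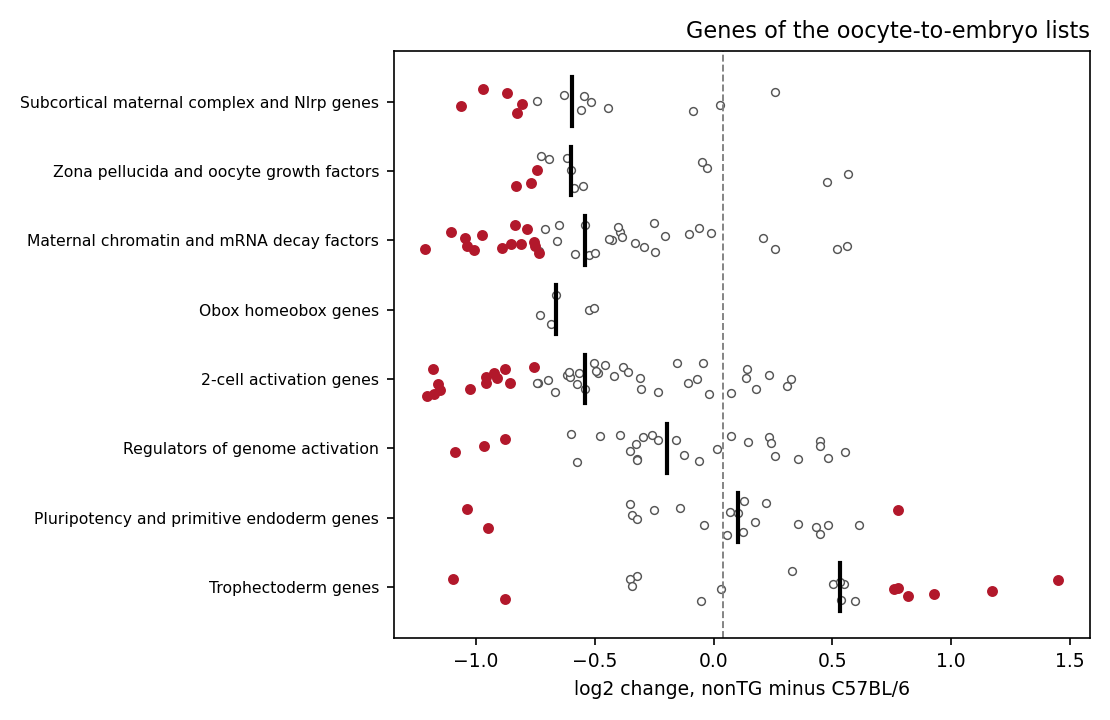
Log2 change of nonTG against C57BL/6 (horizontal axis) for each tested gene of the lists of oocyte, activation and lineage genes, with red points for an unadjusted p under 0.05 and a black bar at the median of each list. The dashed line is the median of all genes, 0.04, and the 5 upper lists have medians of -0.67 to -0.54.

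Genes of the later lineages did not share that direction. Trophectoderm genes, which build the outer layer of the blastocyst, had 13 of 19 above 0 and a relative median of 0.50. Of the 19, 6 were higher (31.58%, against 4.61% of all genes) and 2 lower (10.53%, against 3.62%) at an unadjusted p under 0.05. Id2 was read at 7.59 and 8.30 against 6.56, 6.96 and 5.98 and Atp1b1 had a change of 1.17, as above, while Cldn6, a tight junction protein, had -1.10. Gata2 and the endocytic receptor Lrp2 had 0.82 and 0.93. Of the other transcription regulators in the list, Wwtr1 had 0.54, while Tead4 (-0.88), Yap1 (-0.35), Tfap2c (-0.32) and Gata3 (-0.05) lay below 0. Several genes of this list are expressed in oviduct epithelium as well. Krt7, Krt8, Krt18 and Krt19 are also among the oviduct markers whose mean is the covariate. The relative median was 0.19 in the oviduct-adjusted fit, which partly adjusts these genes for themselves. Pluripotency and primitive endoderm genes had a relative median of 0.06, with Sox17 at 0.77, Gata6 at 0.45 and Spry4 at -0.95. Sox17, too, is among the oviduct markers whose mean is the covariate. Nanog, Pou5f1 and Cdx2 were not analysed here.

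Because the transgene of the line acts on histone methylation, genes of that machinery were examined, and none passed. The 12 tested histone lysine demethylases had changes of -0.67 to 0.49 and a relative median of 0.06. Kdm5b, which acts on the same mark as KDM1A, was read at 5.05 and 5.88 against 5.83, 5.35 and 6.59 (-0.46). Among 21 H3K4 methyltransferase subunits, Kmt2e was on the higher side (5.69 and 5.25 against 3.97, 5.01 and 3.92, change 1.17) and Kmt2d, the enzyme that marks enhancers, on the lower side (3.59 and 3.49 against 4.55, 3.97 and 4.60, change -0.84). The adjusted p was 0.262 for Kmt2e and 0.498 for Kmt2d, and in neither did the groups overlap. KDM1A complex partners had a relative median of -0.16, which was 0.05 in the oviduct-adjusted fit, with Hdac2 at 0.60, Rbbp4 at 0.77 and the NuRD subunit Gatad2b at -0.55. Kdm1a and Kdm1b were not analysed here.

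DNA methylation and imprint maintenance factors had 11 of 19 below 0, and Dppa3 (-1.11, as above) was the member furthest from 0. It was also the 1 at an unadjusted p under 0.05 (5.26% of the list, against 3.62% of all genes on the lower side). Trim28, the corepressor that holds imprints, was read at 5.05 and 5.56 against 5.01, 5.36 and 5.49 (0.02), Zfp57, which recruits it, had -0.35, Tet3, the oxidase of paternal methylcytosine, -0.39 and Dnmt3l -0.37. Imprinted genes had 18 of 32 above 0, and the largest changes were in Mcts2 (-0.82) and Peg12 (0.81), with Igf2 at -0.28 and Peg3 at -0.11. Polycomb subunits turned between the nonTG arrays, with a relative median of -0.38 in replicate 1 and 0.22 in replicate 2, and 0.15 in the oviduct-adjusted fit. At an unadjusted p under 0.05, Rbbp4 (0.77) was higher and Ezhip, the oocyte inhibitor of PRC2 (-0.76), lower. These are 4% of the list each, against 4.61% and 3.62% of all genes. The groups did not overlap for 4 higher (16%) and 1 lower (4%) of the 25, against 15.4% and 9.41% of all genes. Histone genes had 15 of 22 below 0, led by the testis and oocyte histone gene H2bc1 (-1.06), against a change of 0.66 for the linker histone gene H1f2.

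Genes of mitochondrial energy metabolism stood above all genes in both nonTG arrays. Complex I subunits had 29 of 30 changes above 0, complexes II to IV 17 of 18 and ATP synthase 13 of 16, against 53.2% of all genes. Their relative medians were 0.45, 0.47 and 0.43. No member passed. Atp5d, the delta subunit of ATP synthase, was read at 6.59 and 6.13 against 5.13, 5.89 and 4.93 (1.05, adjusted p = 0.357), Sdha of complex II at 5.90 and 6.11 against 4.90, 5.45 and 5.05 (0.87), and Ndufs4 of complex I at 7.59 and 7.67 against 7.0, 7.57 and 5.72 (0.87). In these the nonTG arrays lay above every C57BL/6 array, but C57BL/6 replicate 2 was near them. The mean level of complex I genes was 6.26 and 6.22 in nonTG and 5.71, 6.14 and 5.35 in C57BL/6. In the oviduct-adjusted fit the 3 relative medians were 0.21, 0.25 and 0.20, and after cyclic loess 0.29, 0.28 and 0.20. The mean levels of these 3 lists lay in the range of the brightest bin of genes, whose median change was 0.21 against 0.04 for all genes. The tricarboxylic acid cycle and pyruvate list had 17 of 19 above 0, with Dlst at 0.85 and Sucla2 at 0.73, and glycolysis 14 of 17, with Tpi1 at 0.72 and Pgk1 at 0.57.

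Heat shock genes, coding for chaperones and their partners, had 24 of 24 changes above 0, against 53.2% of all genes, and a relative median of 0.40. Their mean level separated the groups, with 5.62 and 5.54 in nonTG against 5.18, 5.17 and 5.02 in C57BL/6. At an unadjusted p under 0.05, 3 members were higher (12.5%, against 4.61% of all genes). These mean levels lay in the range of the brightest bin of genes. In that bin the median change was 0.21, and 14.7% were at an unadjusted p under 0.05 in either direction. Dnajc3, an endoplasmic reticulum cochaperone, was read at 6.14 and 6.11 against 5.37, 5.04 and 4.59 (1.13, adjusted p = 0.266), Hspa4l at 5.61 and 5.27 against 4.11, 4.46 and 4.86 (0.97) and Bag3 at 4.90 and 4.81 against 4.19, 4.18 and 3.82 (0.79). In each of them both nonTG arrays were above all C57BL/6 arrays. The relative median was 0.28 after cyclic loess and 0.30 in the oviduct-adjusted fit. Unfolded protein response genes, a list that also holds Dnajc3, had 20 of 25 above 0, and Hsp90b1, the chaperone of the endoplasmic reticulum, stood at 8.97 and 8.71 against 8.04, 7.90 and 7.86 (0.91). The mean level of that list was 5.20 and 5.23 in nonTG against 4.94, 4.87 and 4.97, again without overlap and in the range of the brightest bin.

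Growth and division genes went both ways, with no member of these lists passing. Cell cycle and mitosis genes had 46 of 55 below 0 and a relative median of -0.39. At an unadjusted p under 0.05, 4 were lower (7.27%, against 3.62% of all genes). Mki67, the proliferation marker, was read at 4.31 and 4.57 against 5.81, 4.78 and 5.82 (-1.03), and Foxm1, a transcription factor of mitotic genes, at 2.49 and 2.58 against 3.54, 3.28 and 3.82 (-1.01). The mean level of the list overlapped, with 3.83 and 4.11 in nonTG against 4.31, 3.91 and 4.57, and its relative median was -0.01 in the oviduct-adjusted fit. Ribosome biogenesis genes had 35 of 45 below 0 and went from -0.32 to 0.05 in that fit. DNA replication and repair genes were split, with 21 above and 23 below 0. Cytosolic ribosomal proteins (41 of 51 above 0, relative median 0.25) and spliceosome genes (22 of 35, 0.16) went to -0.02 and 0.00 after cyclic loess. Lsm3 and the splicing factors Srsf6 and Srsf3 had changes of 1.16, 0.99 and 0.89. Of the p53 targets, Btg2, an antiproliferative gene, was read at 4.99 and 4.81 against 3.36, 4.22 and 3.46 (1.22, adjusted p = 0.183), and Tigar, a brake on glycolysis, had -0.95.

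**Figure D4:**
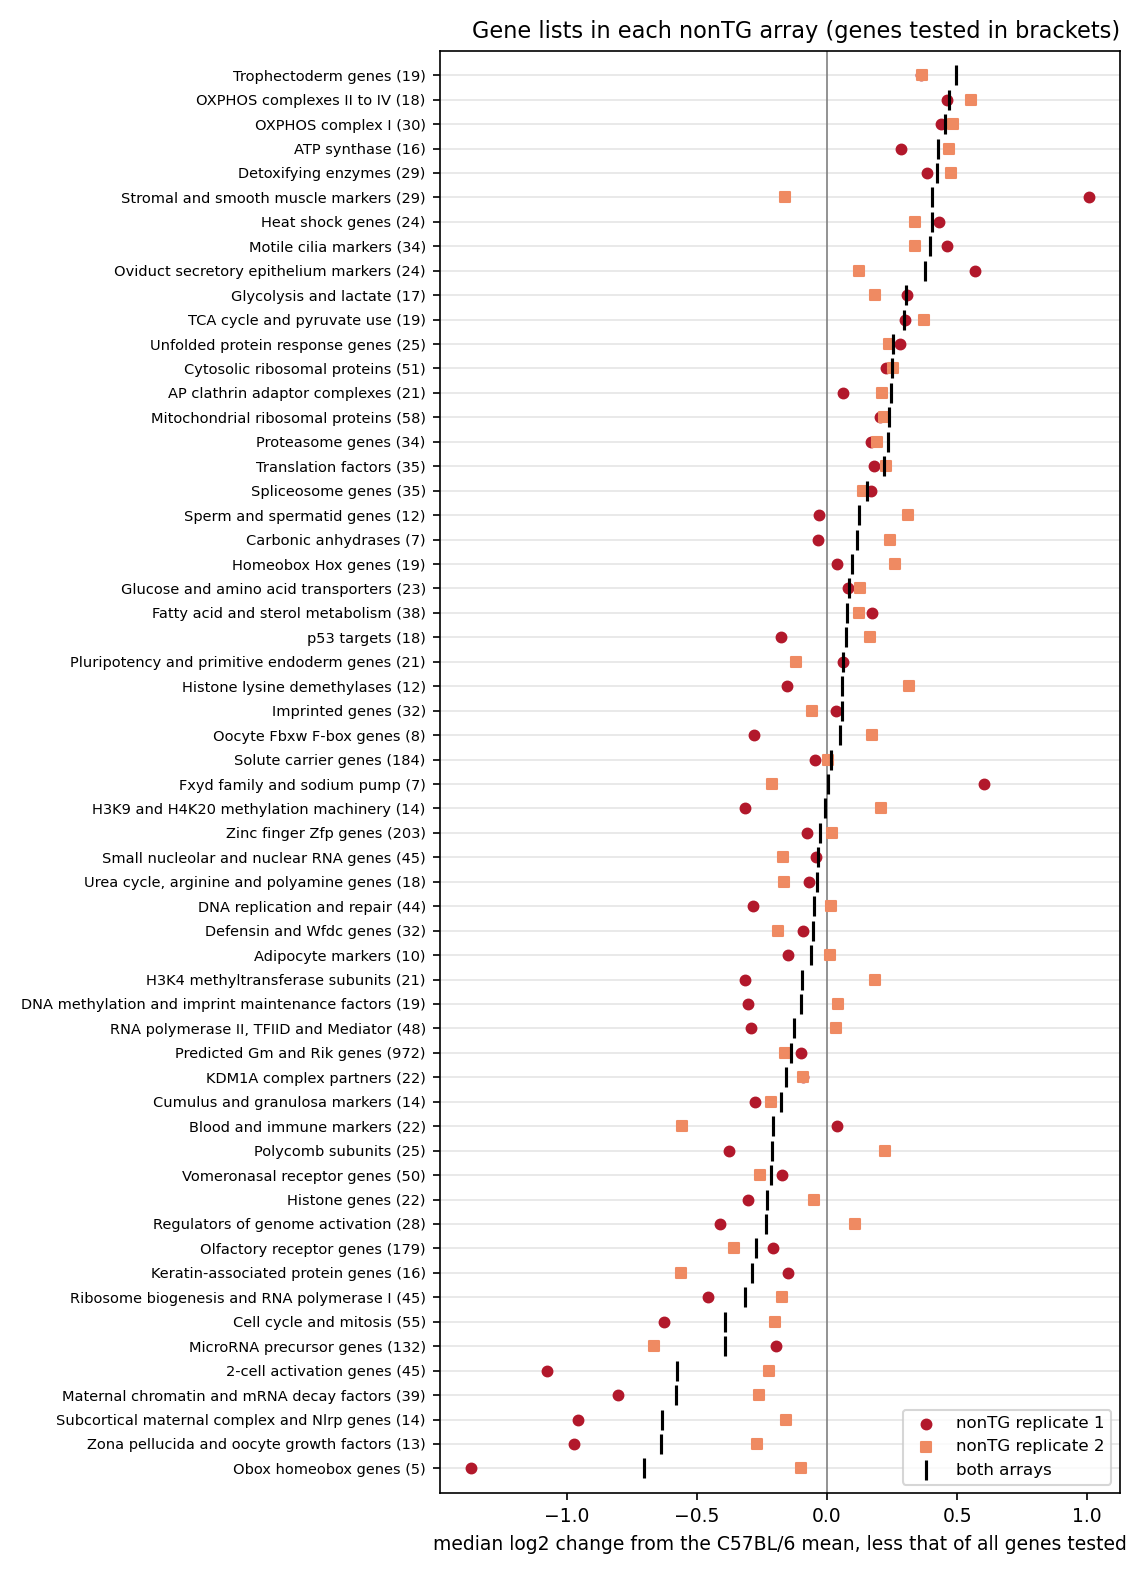
Median log2 change of each gene list with at least 5 tested genes, less the median of all genes (horizontal axis), for nonTG replicate 1 (circles), replicate 2 (squares) and the comparison of both with the C57BL/6 mean (bars). The early lists at the bottom lie lower in replicate 1, microRNA precursors lie lower in replicate 2 (-0.66 against -0.19), and complex I lies at 0.44 and 0.49.

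Markers of other cells that a flushed pool can hold were followed in every array, and apart from Fabp4 none passed. Secretory markers of the oviduct had 17 of 24 changes above 0 (relative median 0.38) and a mean level of 6.09 and 5.46 in nonTG against 5.61, 5.93 and 4.95. Wfdc2 was read at 7.75 and 7.90 against 6.54, 7.03 and 5.75 (1.38, adjusted p = 0.0929) and Ltf at 8.20 and 8.64 against 7.53, 7.52 and 6.97 (1.08), both without overlap, whereas Dcpp2 was high in C57BL/6 replicate 2 alone (2.87 and 1.64 against 2.78, 5.12 and 2.61). Motile cilia markers had 31 of 34 above 0 (0.40) and mean levels of 5.45 and 5.23 against 4.8, 5.19 and 4.77. Foxj1 was read at 5.88 and 5.55 against 4.62, 5.45 and 4.82 and the axonemal gene Spag17 at 3.40 and 2.85 against 1.88, 2.76 and 1.99. Their part in the other differences was not tested beyond the oviduct-adjusted fit.

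Stromal and smooth muscle markers were high in nonTG replicate 1 alone, with a mean level of 5.02 against 3.82 in replicate 2 and 4.07, 4.20 and 3.60 in C57BL/6. Acta2, the smooth muscle actin, was read at 7.12 and 5.06 against 5.52, 4.90 and 3.70, and the regulatory light chain gene Myl9 at 6.6 and 4.28 against 4.75, 4.28 and 3.97. The relative median of the 29 markers was 1.01 in nonTG replicate 1 and -0.16 in replicate 2, and -0.02 in the oviduct-adjusted fit. Blood and immune markers had 13 of 22 below 0, and the neutrophil proteins S100a8 (4.77 and 1.73 against 7.49, 3.76 and 4.24) and S100a9 (3.41 and 1.80 against 6.41, 2.82 and 3.70) were highest in C57BL/6 replicate 1. Ptprc, the common leukocyte antigen, was read at 2.05 to 2.95 in the 5 arrays. Cumulus and granulosa markers had 8 of 14 below 0, and the steroid synthesis genes Cyp11a1 (3.0 and 3.02 against 2.56, 2.53 and 5.53) and Star (2.59 and 2.43 against 2.23, 2.61 and 4.50) were high in C57BL/6 replicate 3 alone. Sperm and spermatid genes, 12 of which were tested, had a relative median of 0.12, with Tnp1 at 2.81 and 2.84 against 2.11, 2.75 and 2.39.

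**Figure D5:**
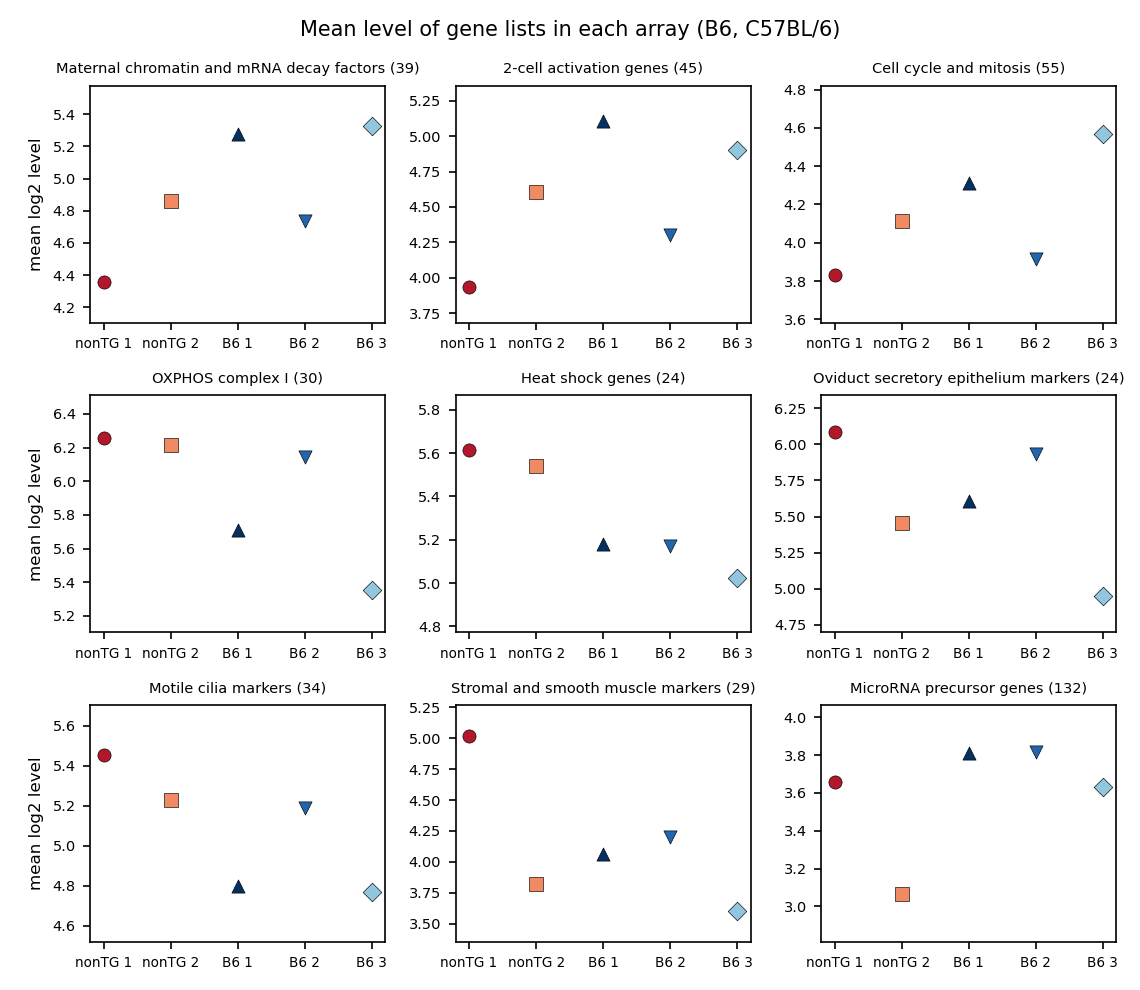
Mean log2 level of 9 gene lists (vertical axes, each with its own range) in the 2 nonTG arrays and the 3 C57BL/6 arrays, with the number of tested genes in brackets. Heat shock genes separate the groups (5.54 and above against 5.18 and below), stromal markers are high in nonTG replicate 1 (5.02) and microRNA precursors low in nonTG replicate 2 (3.06).

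The 2 nonTG arrays differed from each other in defined sets of genes. Replicate 2 lay more than 2 log2 units under replicate 1 for 54 tested genes, and above it by as much for 13. Of the 54, 10 were microRNA precursors and 9 predicted Gm and Rik genes, families with 132 and 972 of the 11444 tested genes. Among the 54 were Col1a1 (6.16 in replicate 1 and 2.70 in replicate 2) and Col1a2 (8.71 and 6.16), the chains of type I collagen, and Sprr2b (7.6 and 2.98), a cornified envelope protein, which varied as widely in C57BL/6 with 10.05, 6.81 and 4.22. Dcpp3, a secreted protein of the demilune cell and parotid family, stood at 7.6 and 2.99 against 5.63, 7.96 and 5.47. Sprr2b and Dcpp3 thus varied widely in both groups, whereas Col1a1 spanned only 4.22 to 5.31 in C57BL/6. None of these 4 passed, but Mir101c, Gm26504 and Krtap4-13, which passed, are also among the 54.

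Families were also read by symbol. Olfactory receptor genes had 128 of 179 tested members below 0 (relative median -0.27), vomeronasal receptor genes 33 of 50 (-0.22) and predicted Gm and Rik genes 558 of 972 (-0.14), against 46.8% of all genes. In each of these the median was lower in nonTG replicate 2 than in replicate 1. Vmn1r9, a vomeronasal receptor gene, was read at 5.31 and 3.41 against 5.79, 6.17 and 5.60 (-1.49, adjusted p = 0.0753). Zinc finger Zfp genes were balanced, with 104 of 203 above 0, and so were solute carriers, with 98 of 184. Among the carriers Slc6a14, an amino acid transporter, was read at 4.60 and 5.19 against 3.58, 4.24 and 3.09 (1.26, adjusted p = 0.167). Small nucleolar and nuclear RNA genes had 22 of 45 below 0. Hox genes had 12 of 19 above 0, with Hoxb8 (0.98) and Hoxb6 (0.75) the members at an unadjusted p under 0.05.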

How the data were processed

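Affymetrix arrays of amplified RNA from pooled 2-cell embryos were read from the deposited log2 expression values per probeset, which the authors made with R 3.1.0, oligo, RMA and limma per the submitters' processing notes, without their roles. Their annotation version is not given in the sources used here, and no detection call was used. Genes were named from the platform annotation and RefSeq (15745 probesets with 1 symbol, 1320 with several, 5896 unnamed). A linear model over the 8 arrays (limma 3.58.1, R 4.3.3; lmFit, then eBayes) let nonTG, C57BL/6 and KDM1A TG share 1 spread, and nonTG minus C57BL/6 was tested two-sided with Benjamini-Hochberg adjustment at 0.05. The procedure was tested on simulated data with 1 variance for all genes and independent noise. Such data do not cover shifts shared by many genes of an array. Members and lists were chosen with earlier results of these data known. Named are all genes that passed, the 10 smallest p a side among others without overlap of arrays (leaving out predicted, receptor and small RNA genes), up to 6 per list by p, and a fixed set. Genes of families, other probesets of the genes that passed, and genes with a gap over 2 between the nonTG arrays were named too, the last after their values were seen. Lists were described by counts and medians without a test. Alternatives covered scaling, filter, variance model, weights, probesets, a covariate and left-out arrays, and fits on all probesets and with a robust variance were chosen after seeing the data. A bound "at least N-fold" sets the brighter mean against the filter level.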

Additional observations from a re-analysis of the deposited data

How the results depend on the processing

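The count of 15 genes (8 higher, 7 lower) depended on the processing. It was 6 (4 and 2) on the 5 arrays alone, 1 (0 and 1) after quantile normalization and also after cyclic loess, 44 (23 and 21) with no filter, 9 (6 and 3) with a 50th percentile filter, 21 (9 and 12) with a mean-variance trend, 47 (22 and 25) with array weights, 10 (6 and 4) with the mean of all probesets of a gene, 9 (2 and 7) in the oviduct-adjusted fit, and 13 (8 and 5) after median centring. Of alternatives chosen after seeing the data, a robust variance estimate gave 42 (25 and 17), and limma on all 16072 probesets above the filter gave 0 (0 and 0), with a lowest adjusted p of 0.0581 and 1273 at an unadjusted p under 0.05. Leaving out single arrays gave 3 to 80 genes, 1 to 51 higher and 2 to 38 lower, with 3 without nonTG replicate 2, 51 without nonTG replicate 1, 21, 80 and 14 without C57BL/6 replicates 1, 2 and 3, and 31, 4 and 11 without KDM1A TG replicates 1, 2 and 3. A group left with 1 array was assumed to vary like the others. The median change of all genes, 0.04, was -0.015 in the oviduct-adjusted fit and between 0.02 and 0.08 otherwise. With the replicate number as a block 23 genes passed (6 higher, 17 lower), 13 of them among the 15. Deviations of arrays with the same number correlated at 0.01 and -0.25. With 2 nonTG arrays the deviations mirror each other, so these values cannot decide whether arrays of a number shared a batch. No named gene that passed changed sign in any alternative. With no detection call, dim genes have no measured floor.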

Other observations

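Among probesets with no symbol or several, which gave no named gene, the share at an unadjusted p under 0.05 was 10.1% of 2954 and 15.2% of 1085, against 6.72% of 12033 with 1 symbol, in the limma fit over all probesets in which none passed.

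Without nonTG replicate 2, the 3 genes that passed were Clca1, Gm7102 and Oser1, and Clca1, a secreted regulator of chloride channels, stood at 6.18 and 3.77 in the nonTG arrays and at 4.04, 4.27 and 3.50 in the C57BL/6 arrays. Gm7102 stood at 2.60 and 4.34 against 4.98, 4.79 and 5.4. These were named after their values were seen.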
